A study of Homo sapiens with 15 samples.

Results

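In the RPTEC kidney cell line, 104967 regions were called accessible in all 15 libraries of the ATAC-seq series. These regions, called constant regions here, were found by joining every peak on chromosomes 1 to 22, X and Y that shared at least 1 bp with another peak of any library, and by keeping the joined regions with a peak in each of the 15 lists. They were 28.5% of the 367949 merged regions. They were chosen by the measured peak calls, so their presence in every library is the rule itself and is not a result. What follows describes where they lie, what sequences they hold, which were the strongest, and how their order of strength differed between the cell lines.

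RPTEC are human renal proximal tubule epithelial cells immortalised with hTERT and kept in G418, which holds the selection for hTERT, and all 15 libraries share this background. WT cells carried intact SETD2, a methyltransferase that brings lysine 36 of histone H3 to the trimethylated state. KO1 and KO2 were single clones with SETD2 disrupted in exon 3 by CRISPR, and Rescue1 and Rescue2 were single colonies of KO cells transduced with a lentivirus for full-length FLAG-tagged SETD2 and selected with blasticidin. Each of these 5 lines had 3 libraries. Each line other than WT is 1 clone, so the state of SETD2 cannot be told apart from other differences between clones, and rescue cells also differ from the others by virus and blasticidin. The labels do not say which KO clone gave rise to which rescue clone, nor whether the 3 libraries of a line came from separate cultures, so every p-value below measures only the spread between these libraries.

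Accessible chromatin is DNA that is free enough of nucleosomes for an enzyme to reach it. Promoters of widely used genes often lie in CpG-rich DNA and carry sites for factors such as ETS proteins, NRF1, NF-Y and SP1, the last of which binds GC boxes. CTCF is a zinc-finger protein that, with cohesin, anchors chromatin loops. AP-1 is a family of dimers of JUN, FOS and related proteins that binds enhancers in many cultured and epithelial cells.

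Stretches of 100 bp around the mean summit are printed here from the hg38 reference, plus strand, 5′ to 3′, to show the sequence types that the results below turn on. With 1 chromosome left out, they are the 3 strongest regions outside promoters with an AP-1 site in the stretch, the 2 strongest outside promoters with a CTCF site, and the strongest protein-coding promoter with an ETS or an NRF1 site, with the site within 50 bp of the summit. The site is in capitals. The AP-1 regions lie in introns of PLEKHG7 (chr12:92746309-92746408), PPFIA2 (chr12:81668599-81668698) and RCAN3 (chr1:24515685-24515784). The CTCF regions lie in an intron of SCN2A (chr2:165293863-165293962) and between genes (chr13:27533247-27533346). The promoters are those of ZNF134 (chr19:57614139-57614238) and CC2D1A (chr19:13906132-13906231).
PLEKHG7, AP-1: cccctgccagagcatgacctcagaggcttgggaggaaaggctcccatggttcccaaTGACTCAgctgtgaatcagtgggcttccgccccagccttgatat
PPFIA2, AP-1: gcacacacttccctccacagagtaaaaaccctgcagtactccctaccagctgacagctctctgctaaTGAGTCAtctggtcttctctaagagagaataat
RCAN3, AP-1: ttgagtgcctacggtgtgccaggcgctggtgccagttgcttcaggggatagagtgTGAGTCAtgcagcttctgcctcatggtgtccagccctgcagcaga
SCN2A, CTCF: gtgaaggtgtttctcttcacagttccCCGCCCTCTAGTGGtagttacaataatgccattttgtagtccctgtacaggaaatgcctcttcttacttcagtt
intergenic, CTCF: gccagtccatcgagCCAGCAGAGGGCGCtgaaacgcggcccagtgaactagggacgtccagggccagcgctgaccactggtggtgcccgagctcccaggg
ZNF134, ETS: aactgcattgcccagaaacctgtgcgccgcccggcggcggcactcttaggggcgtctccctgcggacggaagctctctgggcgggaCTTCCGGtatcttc
CC2D1A, NRF1: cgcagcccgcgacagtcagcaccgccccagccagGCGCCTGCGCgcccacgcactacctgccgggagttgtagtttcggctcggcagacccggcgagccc

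The constant set stood apart from the rest of the merged regions in number and width. Regions with a peak in exactly 14 libraries numbered 12723, those with a peak in 1 library 72941, and no count between 2 and 14 libraries exceeded 31485. The median width was 472 bp (quartiles 320 and 694 bp) at 15 libraries, 280 bp at 14 and 86 bp at 1. Joining more peaks widens a region by construction. Over all 104967 regions in 15 libraries, the median fold enrichment over the local background was 9.86, with 6.99 in the library where each was weakest. Just outside the threshold, the regions in 14 libraries had 6.52 over the libraries that held them, and 4.16 in the weakest of these. Peak calls rest on enrichment, so a higher value in the set called in every library follows in part from the rule. The sets overlapped, since the 1000 weakest constant regions had a median of 3.55 and a region in 14 libraries reached 22.7.

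**Figure D1:**
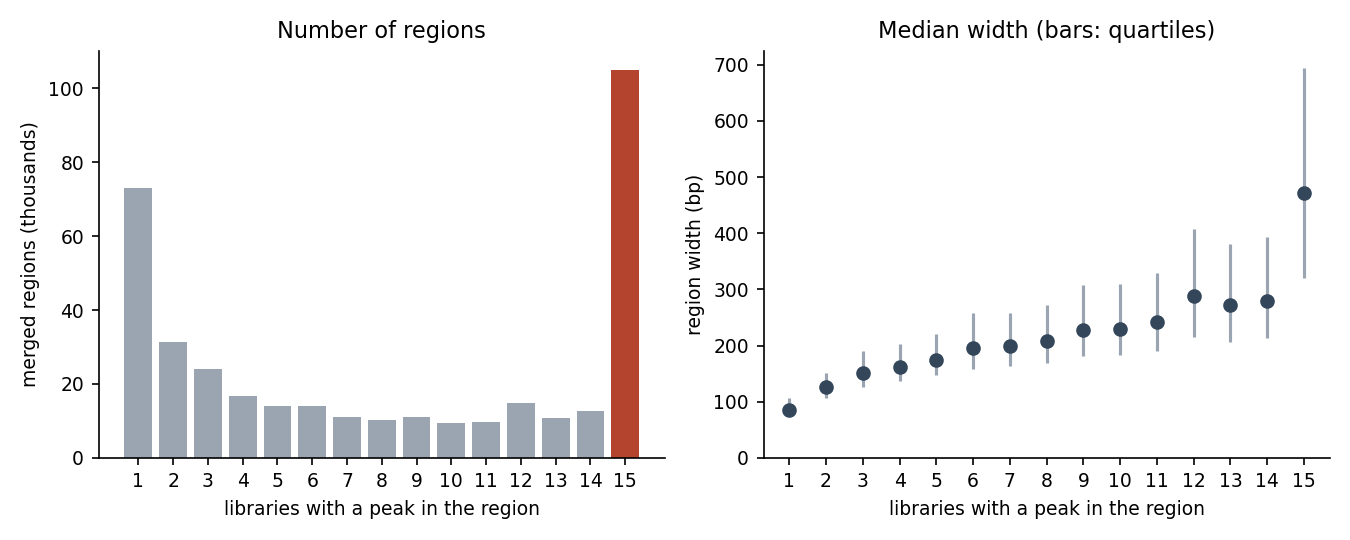
Left, number of merged regions (axis in units of 1000) by the number of libraries with a peak in the region; right, their median width in bp with quartiles as bars. The constant regions, at 15 libraries, number 104967 with a median of 472 bp, against 12723 regions and 280 bp at 14 libraries.

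All constant regions together covered 57.7 Mb, which is 1.87% of the chromosomes used. Their shared part was smaller. The bases under a peak in every one of the 15 libraries came to 26.1 Mb, and a constant region shared a median of 43.0% of its width. Of the constant regions, 83.5% had 1 shared run of bases, 15.3% had 2 or more, and 1265 (1.21%) had none, since their peaks were joined through neighbouring peaks. In a library, the constant regions held 57.0% ± 4.25 of its peaks (SD, n = 15) and 74.2% ± 3.19 of the bases under them. The share of peaks was 57.5, 62.4 and 62.9% in WT, 49.9, 57.3 and 60.4% (lowest, median, highest) in KO and 48.0, 57.5 and 59.8% in rescue libraries. These groups overlapped. The lists with most peaks, Rescue2 replicate 1 with 265193 and KO2 replicate 3 with 254650, gave the lowest shares. The lists hold no read counts, so the read depth behind them is unknown.

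The library that was missing from a region with 14 peaks was not the same across libraries. Rescue2 replicate 1 was the missing one 47 times and KO2 replicate 3 109 times, whereas WT replicate 2 was missing 1809 times and KO1 replicate 1 1798 times. The longest lists were thus rarely the missing ones. Which regions just miss the constant set therefore moved with the length of the lists, and the part of depth in this was not tested.

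Promoters made up a larger share of the constant regions than of any set open in fewer libraries. A region counted as a promoter when it lay within 1000 bp of the 5′ end of a gene in GENCODE 44, and 18.3% of constant regions did. Between 1 and 14 libraries the share stayed from 6.83 to 8.67%, and over all merged regions it was 10.4%. Of the remaining constant regions, 11.1% touched an exon, 45.2% lay in introns and 25.4% were intergenic. CpG-rich sequence followed the promoters. In the 200 bp around the summit, 15.7% of constant regions had more than 50% G and C with a CpG count above 0.6 of that expected from base composition, against 4.53% at 14 libraries. Such sequence was called CpG-island-like, and 62.4% of the 19170 constant promoters had it, compared with 23% of the 13910 promoters open in 2 to 14 libraries.

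**Figure D2:**
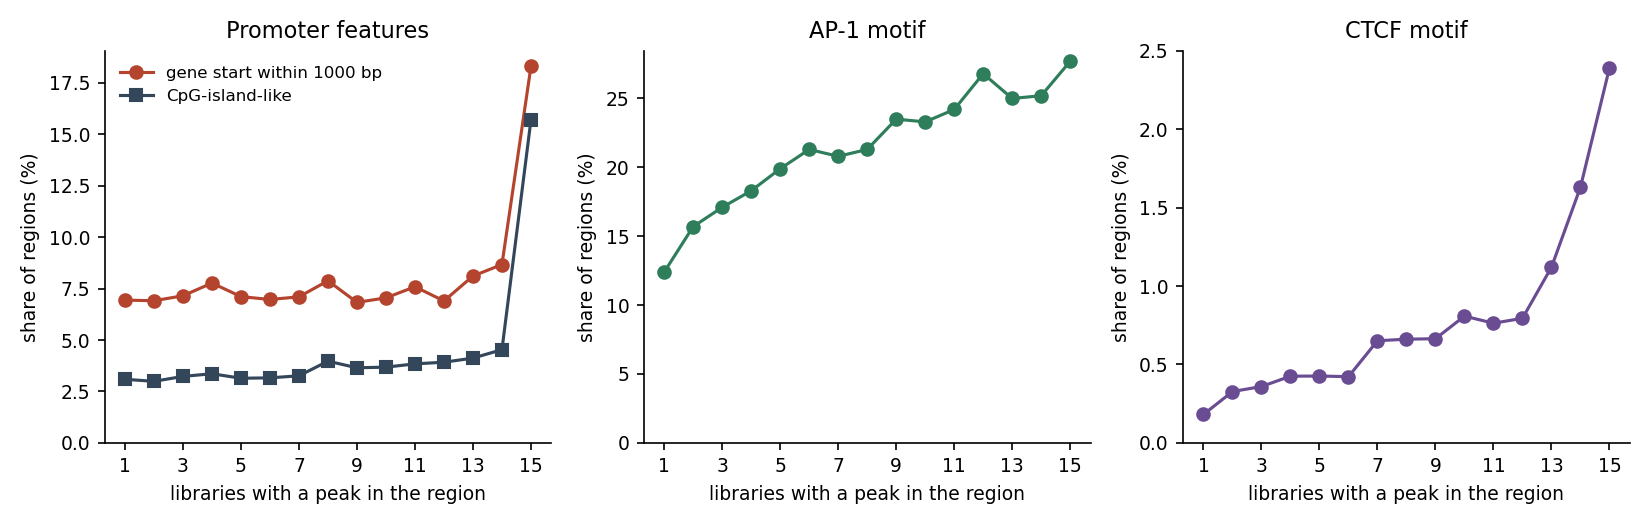
Share of merged regions (%) by the number of libraries with a peak, for a gene start within 1000 bp and CpG-island-like sequence (left), the AP-1 motif (centre) and the CTCF motif (right). Promoter share is at most 8.67% up to 14 libraries and is 18.3% at 15. The AP-1 share goes from 12.4% at 1 library to 27.7% at 15, though not upward at every step (26.8% at 12 libraries, 25.2% at 14).

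Motif shares changed along the same scale in different ways. Motifs were searched on both strands in 200 bp around the mean summit, and a match is a description of letters, not of binding. The AP-1 site TGACTCA was in 12.4% of regions open in 1 library, 25.2% at 14 and 27.7% of constant regions. The CTCF motif was in 0.181%, 1.63% and 2.39% of these sets. Over all merged regions the shares were 21.1% for AP-1 and 1.04% for CTCF. Sites of promoter-binding factors changed mostly between 14 and 15 libraries. The ETS site CCGGAAG was in 0.904% at 14 libraries and 3.22% at 15, the GC box GGGGCGGGG in 1.05% and 3.93%, the NRF1 site in 0.0786% and 1.12%, the YY1 site AAGATGGCG in 0.0865% and 0.387%, and the CRE site TGACGTCA in 0.236% and 0.596%. The NF-Y site CCAATCAG was in 0.747% and 1.44%.

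For the other factors searched, the shares at 14 and 15 libraries lay closer together. TEAD proteins are the DNA-binding partners of YAP, and their site ACATTCC was in 4.90% of regions at 14 libraries and 4.99% at 15. RUNX proteins bind TGTGGTTT, which was in 4.03 and 4.12%. HNF4 and HNF1 are factors of the proximal tubule. The HNF4 site CAAAGTCCA was in 0.283% of regions at 14 libraries, 0.273% of constant regions and 0.261% of all merged regions. The palindromic HNF1 site was in 0.0105% of constant regions and 0.0114% of all merged regions.

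Within the constant regions, promoters and the rest held different motifs. The AP-1 site was in 10.7% of constant promoters and 31.5% of the 85797 constant regions outside promoters. The ETS site was in 10.7% of promoters and 1.56% elsewhere, and the GC box in 15.4% and 1.36%. The CTCF motif went the other way, with 1.18% of promoters, 2.22% of intronic and 3.32% of intergenic constant regions. Because base composition differs between these sets, the shares outside promoters were also read within ranges of GC content. At 40 to 50% GC, AP-1 was in 34.4% of constant regions and 22.6% of regions open in 2 to 14 libraries, and CTCF in 1.75% and 0.451%. At 60% GC or more, AP-1 was in 16.7% and 11.2%, and CTCF in 6.45% and 1.68%. In each of the 4 ranges both motifs were more frequent in the constant set.

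Both motifs sat close to the summit of the peak. Among constant regions outside promoters with the motif within 200 bp of the mean summit, the nearest AP-1 site lay at a median distance of 25.5 bp and the nearest CTCF motif at 17 bp. Within 20 bp of the summit were 41.4% of the AP-1 sites and 57.9% of the CTCF motifs. Regions open in 2 to 14 libraries had similar medians, 24.5 and 15 bp. The summit itself varied less between libraries in these 2 classes than in promoters. Its SD over the 15 libraries had a median of 18.4 bp in CTCF regions, 19.8 bp in AP-1 regions and 30.2 bp in promoters. Over all constant regions this median was 22.5 bp. It was 22.3 bp in regions outside promoters without an AP-1 site and 22.7 bp in those with a TEAD site. A lower value than in promoters was thus not particular to the AP-1 and CTCF classes. Constant promoters were also wider, with a median of 807 bp against 437 bp outside promoters.

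**Figure D3:**
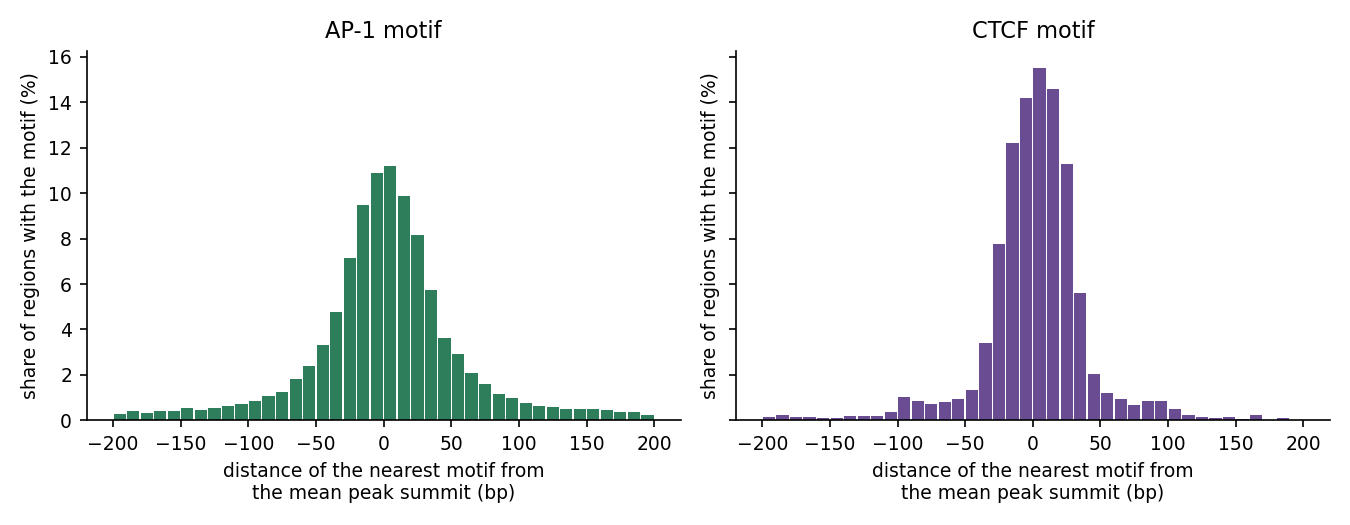
Distance (bp) of the nearest AP-1 site (left) and CTCF motif (right) from the mean peak summit in constant regions outside promoters, as the share (%) of regions with the motif in bins of 10 bp. Both are centred on the summit, with 41.4% of AP-1 sites and 57.9% of CTCF motifs within 20 bp.

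The strength of a region was taken as its percentile rank among the constant regions of a library, from 0 for the weakest to 100 for the strongest, by the highest fold enrichment of its peaks. This places each region within its own library and removes differences in scale between lists, but it is not an amount of open chromatin. The AP-1 site was most frequent at the top of this scale. Outside promoters, the share of regions with the site was higher in each successive decile of the ranking, from 21.2% in the weakest decile to 48.7% in the strongest. Of the 1000 strongest constant regions 55.9% had it, and of the 100 strongest, 68. CTCF did not follow. Outside promoters its share was 2.54% in the weakest decile, 3.11% in the third and 1.52% in the strongest, and none of the 100 strongest regions held the motif. The share of promoters was highest in the weakest decile, at 26.6%, and lowest in the strongest, at 14.2%.

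**Figure D4:**
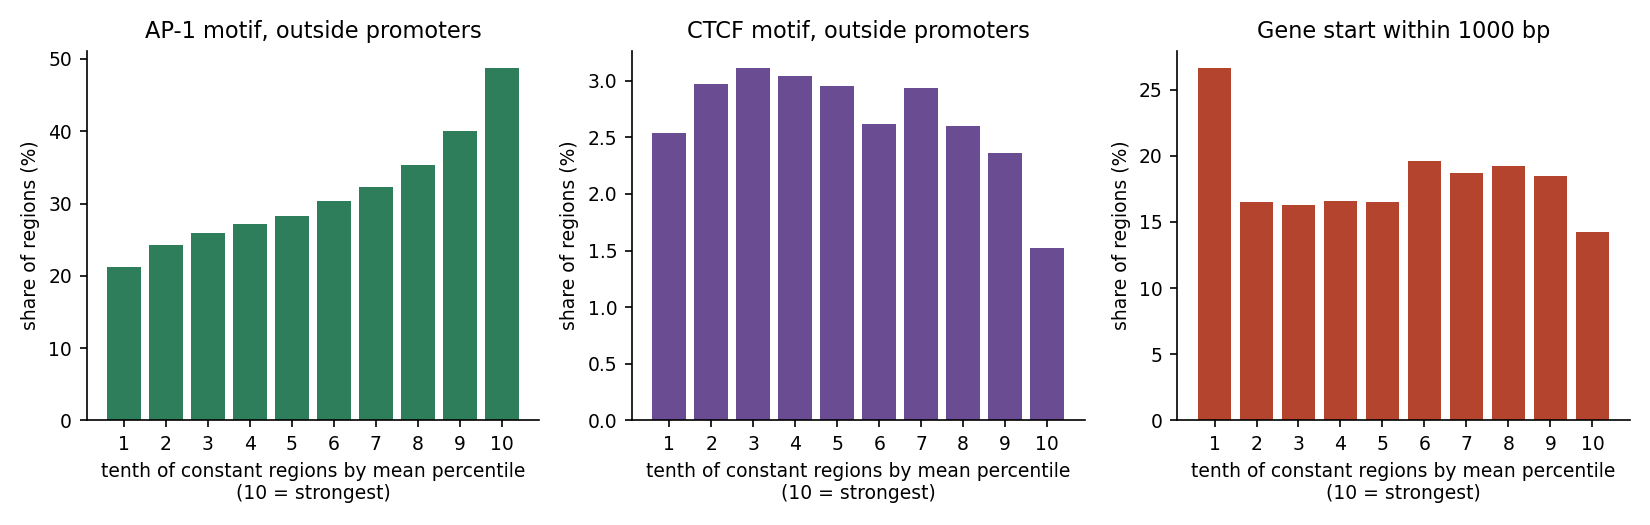
Share (%) of constant regions with an AP-1 site (left) or a CTCF motif (centre), both outside promoters, and with a gene start within 1000 bp (right), in deciles of the mean percentile rank over 15 libraries, 10 being the strongest. AP-1 rises from 21.2 to 48.7%, while CTCF and promoters are lowest in the strongest decile.

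The 20 strongest regions lay mostly away from promoters. Of these, 14 held an AP-1 site, none a CTCF motif, 2 were promoters and 3 were on chromosome 8, which was left out when the printed sequences were chosen. The strongest constant region outside promoters was chr3:151816037-151816409, in an intron of AADAC, which encodes a deacetylase of the liver and gut. Its fold enrichment was 20.6, 27.2 and 28.9 (lowest, median and highest of 15 libraries) and its percentile never fell below 99.87. Next came a region in an intron on chromosome 8 (median fold 25.8), followed by the regions in PLEKHG7 (chr12:92745981-92746504, median fold 25.1) and PPFIA2 (chr12:81668483-81668879, 25), whose sequences are printed above. PPFIA2 encodes a liprin of synapses. Introns of CDC42BPA (chr1:227192220-227192628, median fold 25.2), RCAN3 (chr1:24515494-24516071, 24.4) and SERPINB7 (chr18:63788514-63788995, 24.3) also held regions among the 20. CDC42BPA encodes a kinase that acts on the cytoskeleton, and RCAN3 a regulator of calcineurin. In all 15 libraries these named regions stayed at a percentile of at least 99.57.

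One region was stronger than any of these and has to be read with care. The region chr13:109424100-109424364 ranked first in each of the 15 libraries, with a fold enrichment of 31.5, 33.6 and 36.1 (lowest, median, highest). Its sequence matched the mitochondrial genome over 240 bp with 99.2% identity. Reads of mitochondrial DNA, which is abundant and free of nucleosomes, cannot be told apart from reads of such a nuclear copy here. In all, 34 constant regions (0.0324%) matched the mitochondrial genome, 31 of them with at least 95% identity. Of the 34, 3 were among the 1000 strongest. At the other end, the 3 weakest constant regions lay among copies of the ribosomal RNA genes on chromosome 21 (chr21:8217482-8217923, chr21:8256735-8257203 and chr21:8444723-8445236). Their median fold enrichment was 1.84, 1.92 and 1.96. Repeated copies share reads, so these values belong to no single copy.

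Among promoters of protein-coding genes the strongest was CSRNP3 (chr2:165469483-165469758), with a fold enrichment of 19.5, 24.9 and 30 (lowest, median, highest) and a mean percentile of 99.93. It encodes a nuclear protein of the cysteine and serine rich family. Next came F2RL2 (chr5:76623111-76623593, 99.77), which encodes a thrombin receptor, ZNF169 (chr9:94259143-94259811, 99.64), PLAAT5 (chr11:63489660-63490417, 99.58), an enzyme acting on phospholipids, and NSG2 (chr5:174045495-174045849, 99.56), a neuronal vesicle protein. Of these only F2RL2 held an AP-1 site, and none a CTCF motif. The strongest region with a CTCF motif lay in an intron of MAP4 (chr3:47989830-47990392, mean percentile 99.33) and also held an AP-1 site. Next in strength were chr9:38672299-38672901, between genes, at 99.02 and the SCN2A region printed above (98.81).

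The median width was 334 bp in the weakest decile, 529 bp in the seventh, 590 bp in the ninth and 567 bp in the strongest. The 5 widest constant regions were not among the strongest, with mean percentiles of 4.40 to 42.50. They were an intergenic stretch nearest to ZFP36L1 (chr14:68784335-68787050) and the promoters of VLDLR (chr9:2621301-2623994), TSEN34 (chr19:54189190-54191689), ATXN7L3 (chr17:44198441-44200893) and SAMD4A (chr14:54565140-54567565). VLDLR is a receptor for lipoproteins, and TSEN34 is a subunit of the tRNA splicing endonuclease. The VLDLR promoter ran from the 20.61 to the 51.09 percentile over the libraries.

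Most protein-coding genes had a constant region at their start. Of 20033 such genes, 13201 (65.9%) did, and 77.5% had a peak in at least 1 library. The share was 32.8% for lncRNA genes, 22.1% for miRNA genes and 6.17% for processed pseudogenes. The 5′ end of a gene in the annotation can lie far from its usual promoter, so counts were also made at the start of the transcript tagged canonical, where the protein-coding share was 68.7%. For the lists below, the count at canonical starts is added where it differs.

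Gene classes that every cell uses were nearly complete. All 13 genes of RNA polymerase II and all 11 of CTCF and cohesin had a constant promoter. So did 76 of 78 genes of the mitochondrial ribosome (78 at canonical starts), 35 of 37 of respiratory complex I (37), 79 of 86 ribosomal protein genes (83), 43 of 48 proteasome genes (46) and 18 of 20 cytosolic tRNA synthetase genes (20). Genes that add, remove or read methylation of H3 lysine 36 had 14 of 18, and 18 at canonical starts. At the other extreme were 7 of 415 olfactory receptor genes (1.69%), 2 of 40 beta-defensin genes and 9 of 94 genes of hair keratin-associated proteins. Among families of development, 25 of 39 HOX genes (23 at canonical starts) had one, and this 64.1% was near the 65.9% over all protein-coding genes. Clustered protocadherin genes had 18 of 53.

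Markers of the labelled cell type were mixed. Among 31 proximal tubule genes, 10 had a constant region at the start (12 at canonical starts) and 13 had no peak there in any library. The 10 included PCK1, an enzyme of gluconeogenesis, and the brush border peptidases ANPEP and DPP4. SLC34A1, the gene of a sodium-phosphate transporter, had a constant region at the annotated 5′ end and no peak at its canonical start. Absent were CUBN, AQP1, SLC22A6, SLC22A8 and SLC5A1, which had no peak at the gene start in any library, while LRP2 had peaks there in some libraries. Tubule identity factors had 8 of 11, among them PAX8 and LHX1, whereas HNF4A had none. Epithelial junction genes had 18 of 26 (16 at canonical starts), including EPCAM and CDH16. Mesenchymal genes had 17 of 23, including VIM, FN1 and ZEB1. The shares were 72.7% for tubule identity factors, 69.2% for epithelial junction genes and 73.9% for mesenchymal genes. All lay near the 65.9% over all protein-coding genes, so these counts set the lists little apart from other genes. A constant region at CDH1, the gene of E-cadherin, was missing by both counts. Transporter genes of the tubule with a constant region included SLC3A1 and, at the annotated 5′ end, SLC13A3. Markers of other cell types were not uniformly without one. Podocyte genes had 5 of 8 (62.5%, also near the 65.9% over all protein-coding genes). Genes of other tubule segments had 6 of 14 (7 at canonical starts) and neuronal genes 4 of 10. Erythroid and liver genes had 3 of 10 (2 at canonical starts), endothelial genes 2 of 10 and immune genes 2 of 12 (1). An open promoter is no measure of expression.

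The classes also differed in strength. Over all constant regions the median of the mean percentile was 49.5, and over constant promoters 48.9. Promoters of zinc-finger (ZNF) genes had 75.7 over 408 regions, those of the mitochondrial ribosome 72.5, complex I 72.2 and ribosomal proteins 60.5. Promoters of HOX genes had 8.00, those of genes for AP-1 proteins and their relatives 11.3, those of tubule identity factors 19.7 and those of replication-dependent histones 20.4. Among the JUN and FOS genes, JUNB lay at 1.1, FOSL2 at 4.4, FOS at 5.7 and JUN at 10.1. FOSB lay at 10.8, JUND at 11.7 and FOSL1 at 19.8, beside the frequent AP-1 site in the strongest regions. Their relatives in the list ran from 2.9 at MAFK to 79.3 at BATF2.

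Having a value in every library, the constant regions can be compared between lines by rank, and the study's comparisons of KO with WT and of rescue with KO were made in this way. The percentiles were fitted with limma, with 1 mean per line, and a region was called when its difference was at least 10 percentile points with a Benjamini-Hochberg adjusted p under 0.05 over all 104967 regions. Both comparisons use the KO libraries, so their results are not independent of each other. Rank is relative: where some regions move up, others must move down.

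SETD2 itself showed no call. Its gene lies on the minus strand at chr3:47016428-47164113, and its promoter was a constant region (chr3:47163180-47164925). The percentile was 38.3, 39.5 and 62.6 in WT, 49.4, 59.9 and 66.4 (lowest, median, highest) in KO, and 42.9, 62.4 and 73.6 in rescue libraries. The groups overlapped, and KO minus WT was 12.8 ± 6.8 points (SE, limma adjusted p = 0.204). A frameshift in an exon need not change the promoter, so this value does not check the genotype.

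In KO against WT, 12099 constant regions ranked higher and 12020 lower, each 11.5% of those tested. For 9132 of the higher and 8712 of the lower regions, all 6 KO libraries lay on one side of all 3 WT libraries. In rescue against KO, 11112 ranked higher and 11085 lower, each 10.6%, and 3627 and 3470 of these did not overlap between groups. For both comparisons overlap was counted among called regions only. With no share over all constant regions beside them, these counts describe the calls and add no separate result. The differences reached 88.8 points up and -90.5 points down in KO against WT, with a median standard error of 5.2 points. Clones of the same genotype also differed in some regions. In KO1 against KO2, 1121 regions (1.07%) ranked higher and 2065 (1.97%) lower, and in Rescue1 against Rescue2 730 (0.695%) and 1620 (1.54%). Of the regions called in KO against WT, 99.3% had both KO clones on the same side of WT. Regions were called on the mean of both clones, so this share follows largely from the choice and does not test agreement of the clones. The counts for rescue depended on the KO clone. Against KO2 alone there were 5306 higher and 5300 lower, and against KO1 alone 11737 and 12301. The mean correlation of ranks with KO2 libraries was 0.812 for Rescue1 and 0.832 for Rescue2, and with KO1 libraries 0.759 and 0.758. With WT libraries it was 0.73 for Rescue1 and 0.738 for Rescue2, against 0.734 for KO1 and 0.739 for KO2. Over all constant regions, the ranks in rescue were thus no closer to WT than those in KO. With all regions of at least 2 libraries in the fit, 8040 constant regions ranked higher and 9505 lower in KO, and 7328 ranked higher and 5313 lower in rescue.

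Of 19170 constant promoters, 992 (5.17%) ranked higher and 1401 (7.31%) lower in KO against WT, beside the 11.5% each way over all constant regions. In rescue against KO they had 913 (4.76%) higher and 2183 (11.4%) lower, against 10.6% each way. CpG-island-like regions had 3.77% higher and 5.63% lower in KO, and 2.46% higher and 12.7% lower in rescue. The median percentile of all constant promoters was 47.9, 52.3 and 52.8 in WT, from 45.7 to 52.4 in KO, and from 43.1 to 48.5 in rescue libraries. These ranges overlapped.

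Outside promoters, regions with an AP-1 site had 4284 (15.9%) higher and 2841 (10.5%) lower of 27018 in KO against WT. Their median percentile was 55.4, 55.5 and 56.7 in WT, from 57.1 to 61.8 in KO and from 60.5 to 61.3 in rescue libraries, so that no KO or rescue library overlapped WT. Regions outside promoters without the site had 11.6% higher and 13.2% lower, and all constant regions 11.5% each way. Regions with the site were also stronger, with a median of the mean percentile of 58.2 against 46.3 without it. In decile 8 of strength as a whole, 16.3% ranked higher and 10.9% lower. The part of strength in the AP-1 shares was not tested. Regions with a RUNX site had 17.1% higher and 12% lower. Regions with a TEAD site had 472 (9.85%) higher and 889 (18.5%) lower of 4793, and their median percentile was 54.2, 54.6 and 55.7 in WT, from 49.0 to 50 in KO and from 49.3 to 52.1 in rescue libraries, again without overlap with WT. Regions with a CTCF motif had 54 (2.36%) higher and 262 (11.5%) lower of 2286. In this class the KO clones differed, with medians of 50.2, 53.7 and 47.5 in KO1 and of 40, 42.1 and 44.2 in KO2, whereas WT had 51.2, 52.7 and 53.5. CTCF regions also had the largest spread within a line of the classes outside promoters that were examined, with a median SD of 9.61 points against 7.72 over all constant regions.

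Calls differed with strength as well as with class. In the strongest decile of the constant regions 6.25% ranked higher and 2.22% lower in KO, in the fifth decile 14.2 and 15.7%, and in the weakest 2.09 and 7.05%. Regions at either end have less room to move in one direction, and their SD over the 15 libraries was also smaller, with medians of 4.45 and 4.58 points against 14.4 in the fifth decile.

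Named promoters were the 10 with the largest difference in each comparison and direction among called promoters of protein-coding genes whose groups did not overlap. The largest fall in KO was at ZNF418 (chr19:57934901-57935566), which encodes a zinc-finger repressor. Its percentile was 97.7, 97.8 and 99.5 in WT, 3.5, 5.6 and 22.1 in KO, and 84.9, 88.6 and 97.3 in rescue libraries. KO minus WT was -90.5 ± 4.0 points (SE, limma adjusted p = 2.71e-08) and rescue minus KO 82.2 ± 3.2 (limma adjusted p = 7.37e-08). It led both the lower calls in KO and the higher calls in rescue. The largest rise in KO was at OR8D1 (chr11:124315084-124315402), the gene of an olfactory receptor, whose canonical start lies 1135 bp from the region. The percentile was 3.9, 4.4 and 15.5 in WT, 72.4, 83.1 and 87.9 in KO, and 1.2, 11 and 20.6 in rescue libraries, with KO minus WT 73.8 ± 3.7 and rescue minus KO -70.0 ± 3.0 (limma adjusted p = 8.65e-08 and 1.83e-07). WT and rescue overlapped, and KO lay apart from both. The 100 bp around the mean summits of these promoters, plus strand, held none of the motifs spelled above nor the CTCF, NRF1 and HNF1 motifs.
ZNF418, chr19:57935397-57935496: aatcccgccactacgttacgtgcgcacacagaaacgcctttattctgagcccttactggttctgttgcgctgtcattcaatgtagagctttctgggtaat
OR8D1, chr11:124315200-124315299: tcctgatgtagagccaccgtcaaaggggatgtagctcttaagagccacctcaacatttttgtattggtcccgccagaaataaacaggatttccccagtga

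Other promoters that ranked lower in KO and higher again in rescue included SCEL, CD22 and SNX32. SCEL (chr13:77535454-77535941) encodes sciellin, a protein of the cornified envelope of squamous epithelia. Its percentile was 82.5, 91.0 and 91.2 in WT, 3.6, 25.5 and 29.4 in KO, and 56.3, 72.1 and 84.3 in rescue libraries, and both differences were called (-67.0 ± 5.5 and 51.3 ± 4.5 points, limma adjusted p = 4.26e-06 and 1.29e-05). At CD22, the gene of a lectin of B cells, the annotated gene start at the region is 9632 bp from the canonical one, and the differences were -63.9 ± 4.2 and 56.1 ± 3.4 points (limma adjusted p = 6.95e-07 and 1.03e-06). SHROOM3, which encodes an actin-binding protein of the apical junction, fell by 62.3 ± 8.0 points in KO, from 74.9, 75.1 and 82.5 in WT to 5.0, 16.2 and 24.7, and rose by 27.2 ± 6.5 in rescue (limma adjusted p = 1.31e-04 and 0.0102). Rescue libraries ran from 23.2 to 65.1 there, below every WT library.

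Some promoters moved in KO and showed no call in rescue. EHBP1 (chr2:62672473-62672974), which encodes a protein of endocytosis, had 86.5, 88.6 and 88.8 in WT, 4.4, 13.7 and 30.2 in KO, and 10.2, 21.0 and 44 in rescue libraries. Its region lies 32739 bp from the canonical start. KO minus WT was -72.9 ± 4.4 (limma adjusted p = 3.64e-07) and rescue minus KO 8.8 ± 3.6 (limma adjusted p = 0.0985). RAP1A, the gene of a small GTPase of cell adhesion, showed the same order, with means of 89 in WT, 27.8 in KO and 26.9 in rescue, at a region 77695 bp from the canonical start. On the rising side, SPDYC, whose product activates cyclin-dependent kinases, had means of 16.7 in WT, 89.2 in KO and 94.5 in rescue, and IFNA1, an interferon gene with close relatives nearby, 19.7, 87.1 and 88.5. The IFNA1 region (chr9:21440822-21441370) begins 383 bp downstream of the gene start and runs past the gene's 3′ end. F13A1, the A subunit of coagulation factor XIII, had 14.4, 76.6 and 79.6, SAMD9, an antiviral protein, 21.0, 81.0 and 91.1, and SUSD5 11, 73.8 and 64.9. For each of these 7 promoters no rescue library lay within the range of WT.

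The remaining rises in KO were at TREM1, RFX8, SPAG17 and ENPP5, with differences from 55.5 to 63.8 points, and the remaining falls at TMEM235, MYPN, ASPN and SNX32, from -57.2 to -65.6. TREM1 and ENPP5 ranked lower again in rescue, and all of these 4 falls were followed by a higher rank in rescue, the smallest at MYPN with 19.3 points (limma adjusted p = 0.0398). Rescue libraries overlapped KO at SNX32 (KO up to 49.0, rescue from 42.1), ASPN (34.7 and 21.4) and MYPN (24.0 and 22.6). At TMEM235 they did not (16.1 and 38.0). The MYPN region lies 21487 bp from the canonical start. ENPP5, of a family of enzymes that cleave nucleotides and phospholipids, had 20.3, 42.2 and 49.9 in WT, 84.0, 93.1 and 98.5 in KO, and 29.8, 36.6 and 66.0 in rescue libraries, with KO minus WT 55.5 ± 7.6 and rescue minus KO -52.4 ± 6.2 (limma adjusted p = 2.25e-04 and 1.15e-04).

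Another group was called in rescue against KO with no call in KO against WT. AGBL4 (chr1:50023674-50024230), which encodes an enzyme that trims glutamates from tubulin, had 71.0, 82.2 and 91.6 in WT, 68.9, 87.7 and 95.4 in KO, and 3.3, 9.4 and 25.1 in rescue libraries. Rescue minus KO was -74.2 ± 4.6 points (limma adjusted p = 1.09e-06), and KO minus WT 3.9 ± 5.6 (limma adjusted p = 0.682). The region lies in reach of the start of ELAVL4 too. PI3, the gene of the protease inhibitor elafin, had means of 81.4 in WT, 88.9 in KO and 18.0 in rescue, ZNF175 76.1, 83.1 and 26.9, and ADA2, an adenosine deaminase, 72.8, 71.6 and 26.8. The ADA2 region lies 38584 bp from the canonical start and the PI16 region 6353 bp. KLHL14 had 23.8, 22.1 and 79.8, PI16 19.5, 13.8 and 64.0, and CLEC18B, which has near-identical copies, 24.6, 11.9 and 73.7. EPO, the gene of the kidney hormone erythropoietin (chr7:100720004-100720575), had 35.5, 35.9 and 52.3 in WT, 8.6, 26.7 and 36.7 in KO, and 58.2, 73.4 and 85.8 in rescue libraries, with rescue minus KO 47.8 ± 4.9 (limma adjusted p = 3.80e-05) and KO minus WT -16.8 ± 6.0 (limma adjusted p = 0.0606).

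In several others both comparisons were called. IKZF3, which encodes the lymphoid factor Aiolos, fell at each step, from a mean of 97.9 in WT to 68.9 in KO and 16.1 in rescue. B3GNT8, 1225 bp from its canonical start, had 60.3, 13.2 and 76.0, SFTPA1, which has a close copy in SFTPA2, 38.8, 14.4 and 73.1, and GJC3 95.5, 50.1 and 97.3. RIPPLY2 had 16.4 in WT and 6.6 in rescue, with 43.6 points more in KO than in WT. DAAM2 had 13.9, 67.3 and 21.1, and COX6B1, a subunit of cytochrome c oxidase, 44.2, 91.1 and 46.7.

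**Figure D5:**
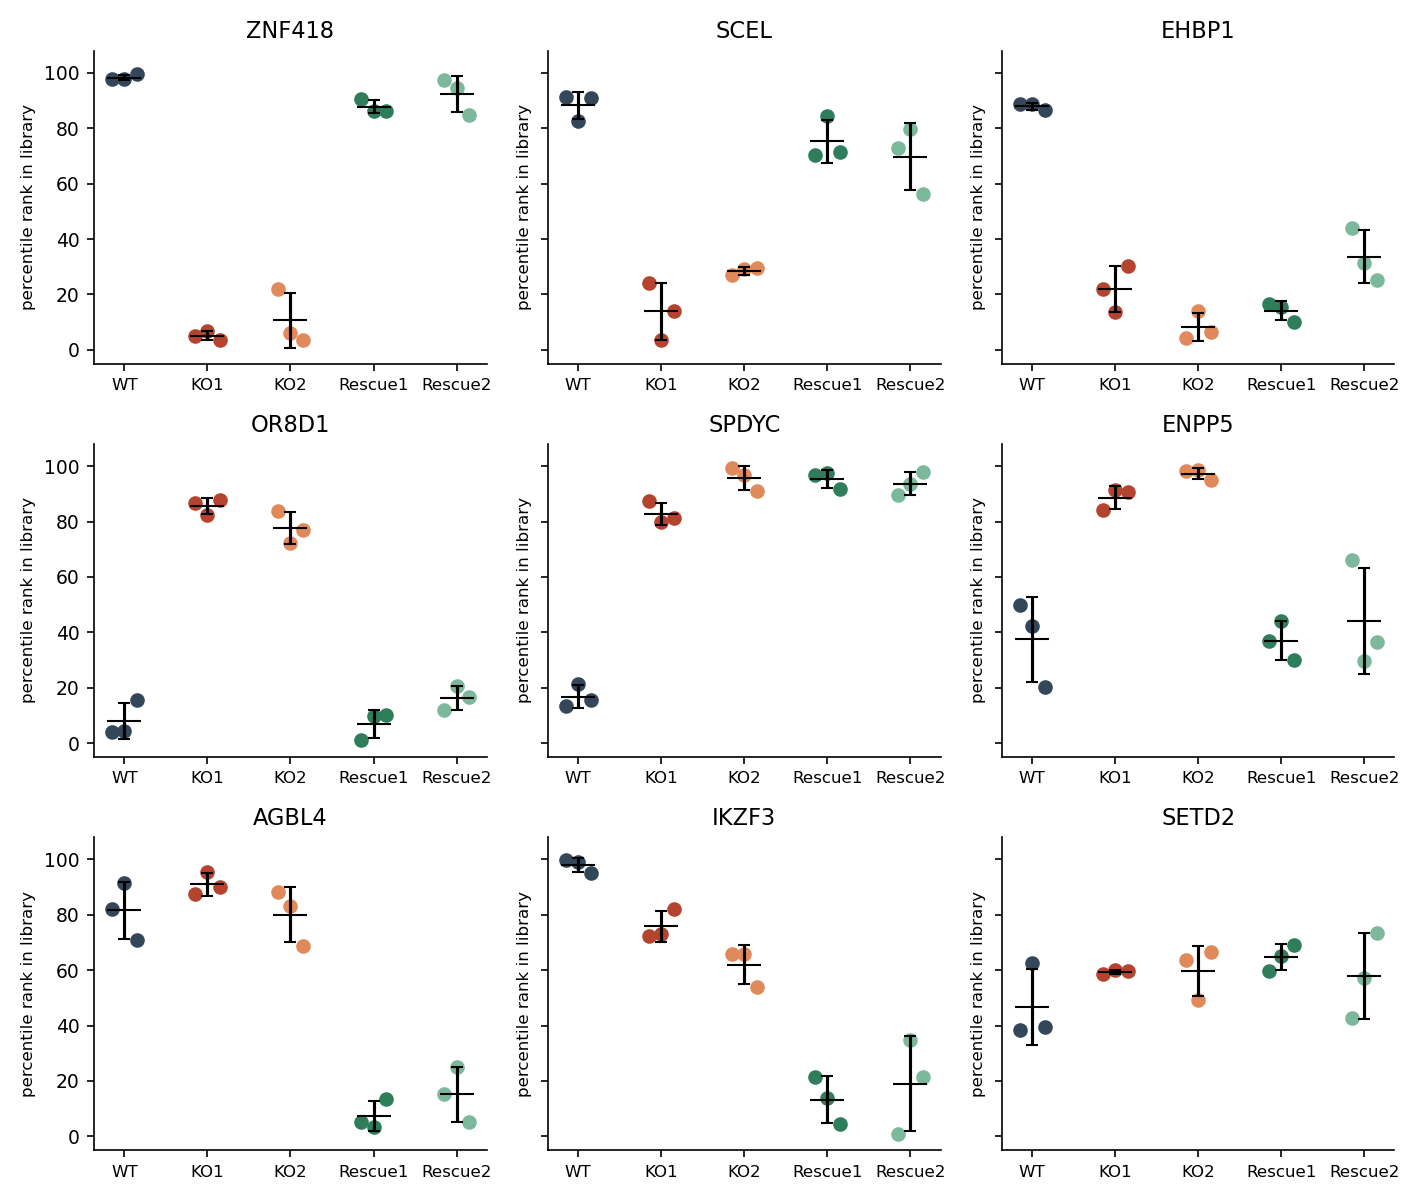
Percentile rank of 9 promoter regions in each library, for WT, KO1, KO2, Rescue1 and Rescue2 (3 points each, black mark and bar the mean ± SD). At ZNF418, SCEL, OR8D1 and ENPP5 the KO libraries lie apart from WT and rescue, EHBP1 and SPDYC differ between WT and the rest, AGBL4 and IKZF3 are lowest in rescue, and SETD2 shows overlapping groups.

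For the gene lists, the shares to read beside each count are those of all constant promoters, 5.17% higher and 7.31% lower in KO and 4.76% higher and 11.4% lower in rescue, and those of all constant regions, 11.5% and 10.6% each way. Epithelial junction genes had 5 of 18 tested promoters higher and 1 lower in KO against WT, and none higher and 6 lower in rescue against KO. CDH16, the kidney-specific cadherin, had means of 45.5 in WT, 63.6 in KO and 52.0 in rescue, ESRP2, a splicing factor of epithelia whose canonical start had no constant region, 28.4, 52.0 and 33.4, MUC1, a mucin, 24.1, 40.1 and 27.9, and EPCAM 66.4, 78.8 and 67.6. All of these 4 were called in both comparisons. KRT8 rose by 26.8 ± 4.8 points in KO (limma adjusted p = 0.00147) with no call in rescue, and KRT19 was lower in KO. Of 17 mesenchymal promoters, 1 was higher and 2 were lower in KO, and 1 was lower in rescue, so that the counts in KO were near the shares over all constant regions and promoters. The members called in KO were the following. SNAI1, a repressor that drives loss of epithelial traits, fell by 25.5 ± 4.7 points in KO (limma adjusted p = 0.00171), VIM by 12.6 ± 3.1 (limma adjusted p = 0.0102), and S100A4 rose by 17.8 ± 3.3 (limma adjusted p = 0.00190).

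Proximal tubule genes had 1 of 10 higher and 1 lower in KO, near the share over all regions, and none called in rescue. PDZK1, a scaffold of brush border transporters, had means of 6.3 in WT, 32.0 in KO and 22.1 in rescue, and SLC3A1, of cystine transport, 39.5, 24.7 and 29.0. LHX1, a factor of early kidney development, was the only tubule identity factor of 8 that was called, with 25.7 in WT and 9.5 in KO. Of 2 endothelial promoters tested, 1 was called. KDR, a receptor for VEGF on endothelium, had 8.2 in WT, 56.1 in KO and 24.6 in rescue (47.8 ± 7.5 and -31.5 ± 6.1 points, limma adjusted p = 5.96e-04 and 0.00315). CDH5 had no call in either comparison, with KO minus WT 8.0 ± 3.6 points (limma adjusted p = 0.132). Of 4 neuronal promoters 2 were higher in KO. SNAP25 and SYT1 rose by 33.1 ± 3.5 and 29.4 ± 4.9 points in KO (limma adjusted p = 3.34e-05 and 9.86e-04), while the differences were -5.7 at NEFL and -0.5 at SLC17A7, neither called.

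Housekeeping lists are again set beside all constant promoters, of which 7.31% were lower in KO and 11.4% lower in rescue. Ribosomal protein promoters had 0 higher and 13 lower of 79 in KO, with a median difference of -7.67 points, against -0.62 over all constant regions. Those of the mitochondrial ribosome had 0 higher and 5 lower of 75 in KO, near that share, and 1 higher and 18 lower in rescue. ZNF promoters had 19 higher and 20 lower of 408 in KO, and 14 higher and 67 lower in rescue. Promoters of RNA polymerase II genes had no call in either comparison over 13 regions. Of the 14 genes that act on or read H3 lysine 36 methylation, MORF4L1 alone was called, lower in KO by 12.6 ± 3.7 points (limma adjusted p = 0.0253). CTCF and RAD21 had no call, while SMC1A and WAPL were lower in rescue.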

How the data were processed

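ATAC-seq peak lists of 15 libraries were used, 3 for every line (WT, both KO clones and both rescue clones), grouped by their titles. Per the submitters' processing notes, reads were aligned with BWA 0.7.17 to hg38 and peak lists, 1 for each library, were made with MACS2 2.2.7.1. Control tracks, duplicate removal and exclusion of problem regions are not given in the sources used here. Each list deposited by the authors gives per peak a score, the summit's fold enrichment over local background (a ratio), the −log10 p and the −log10 q. The lists give no read counts, so depth is unknown, and a region without a peak is one below the calling threshold.

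Peaks on chromosomes 1 to 22, X and Y sharing 1 bp were merged in Python 3.11.15 (pandas 2.3.3). Promoters were regions within 1000 bp of a gene's 5′ end in GENCODE 44, whose build is that of the lists. Motifs were searched in 200 bp around the mean summit, and constant regions were compared with the mitochondrial genome by blastn 2.17.0 (e-value 1e-10). Percentile ranks were tested with limma 3.58.1 in R 4.3.3, with all 15 libraries sharing 1 estimate of the spread. Scripts were tested on simulated data. The members and the gene lists were chosen with earlier results of these data known. Regions named were the 20 strongest, the 5 strongest among promoters, regions outside promoters and those with a CTCF or AP-1 motif, the 5 widest, and for each rank comparison and direction the 10 protein-coding promoters with the largest difference among called regions whose groups do not overlap. Alternatives were stricter or equally long peak lists, other rules of overlap, other windows and motif patterns, other scales and cut-offs of the rank test, each clone alone, a replicate block, and leaving out each library. Canonical starts and removal of mitochondrial matches were added after seeing the data. Intervals cover counting error only.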

Additional observations from a re-analysis of the deposited data

Results flagged for a closer look

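A search of 84 groups of 6 libraries for one standing far outside the rest found 7, and chance alone gives about 1 in 20. The list of KO2 replicate 3 held 254650 peaks, far above the other KO lists, and the median peak width inside constant regions was 238 bp in KO2 replicate 2, below the other KO libraries. The promoter of RFX8 had a percentile of 50.6 in KO1 replicate 1, that of ZNF418 22.1 in KO2 replicate 1 and that of PI3 78.6 in KO2 replicate 3, each apart from the other 5 KO libraries. SPAG17 had 77.7 in Rescue1 replicate 2 and ZNF175 17.4 in Rescue2 replicate 1, apart from the other rescue libraries.

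Clones of the same genotype differed in some regions. KO1 against KO2 gave 1121 constant regions higher and 2065 lower, and Rescue1 against Rescue2 gave 730 higher and 1620 lower. Among the 35 named promoters, only GJC3 differed between KO clones, by -32.7 points in KO1 minus KO2 (limma adjusted p = 0.00293), and none differed between rescue clones. Outside the chromosomes used, the median number of peaks was 662.5 in rescue libraries against at most 650 in a WT library, and on the mitochondrial genome itself it was 6 against at most 5. Single libraries overlapped, with 620 and 632 such peaks in the lowest rescue libraries, and as a share of all peaks rescue ran from 0.289 to 0.316% and WT from 0.282 to 0.305%.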

How the results depend on the processing

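Counts of constant regions ranged from 105076 to 106895 without any 1 library and were 101414 with −log10 q of at least 3, 77415 with the 150000 strongest peaks of each library and 124363 as runs of bases under a peak in all 15. Requiring each library to cover 50% of a region left 51309. Under these 4 rules in turn the promoter share was 18.5, 19.2, 22.4 and 25.7%, and the median width 477, 518, 159 and 530 bp. The share of protein-coding genes was 59.0% with equal lists, 64.9% with runs and 54.1% with 50% cover, the AP-1 share 29.6, 24.3 and 26.7%, and the CTCF share 2.08% with runs and 1.87% with 50% cover. Promoter windows of 500 and 2000 bp gave promoter shares of 15.5 and 22.6% and gene shares of 63.0 and 69.9%, protein-coding starts alone a promoter share of 12.8%, and canonical starts 19.2% and 68.7%. In sequence windows of 100 and 400 bp AP-1 was in 22.2 and 31.0% and CTCF in 2.12 and 2.54%. A looser CTCF pattern gave 5.79%, and AP-1 or CRE 28.2%. Without each library in turn the median width was 462 to 469 bp, the promoter share 18.1 to 18.3%, the gene share 65.9 to 66.0%, the CTCF share 2.36 to 2.41% and the AP-1 share 27.6 to 27.8%. Removing the 34 mitochondrial matches left 104933 regions and moved no share beyond its interval.

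Ranking counts in KO against WT ran from 9473 to 12086 higher and 8698 to 12034 lower without 1 library, and in rescue against KO from 9756 to 10999 and 9526 to 10993. A minimum of 20 points gave 7983 lower in KO against WT, and 6495 higher and 5030 lower in rescue against KO. With all regions of at least 2 libraries in the fit, KO against WT had 8040 higher and 9505 lower, and rescue against KO 7328 higher and 5313 lower. Rescue against KO2 alone had 5306 higher and 5300 lower. The causes were not tested. Same-numbered libraries of different lines did not deviate together (correlation over 0.1 in 1 of 30 pairs), so the numbers pair no samples. A replicate block gave 11822 higher and 11615 lower in KO against WT and 10837 and 10769 in rescue against KO. Among the 35 named promoters it changed only the call of CLEC18B in KO against WT (-12.7 points, limma adjusted p = 0.0219 with the block and 0.110 without). Missing read counts limit every height to a rank within its list.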

Other observations

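Constant regions were crowded into part of the genome. Of 15166 windows of 200 kb on chromosomes 1 to 22 and X, 78.3% held at least 1, with a median of 8 where there were any, and the fullest 19.9% of the windows held 50% of all constant regions. Chromosome 17 had 54.6 per Mb and chromosome 19 48.6, against 22.9 on chromosome 13 and 16.4 on chromosome X. Promoters made up 37.9% of the constant regions of chromosome 19 and 14% of those of chromosome 13. The fullest window, chr17:19000001-19200000 with 40 constant regions, 26 of them promoters, spans SLC5A10, FAM83G and the GRAP genes, of which GRAP and GRAPL are near copies. The window chr15:67000001-67200000 over SMAD3, the gene of a signal transducer of TGF-beta, had 35, of which 2 were promoters and 7 held an AP-1 site. The window chr14:61400001-61600000 over PRKCH, a protein kinase C gene, also had 35, and 14 of these held an AP-1 site.

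Counted over whole protein-coding genes, high numbers were found at KAZN, which encodes a protein of desmosomes and the cytoskeleton, with 76 constant regions over 1225 kb, and at RUNX1, which encodes a factor binding the RUNX site, with 68 over 1217 kb. Between them lay ENSG00000285708 with 69, a gene that overlaps FOXP1. PDE4D, the gene of a phosphodiesterase of cAMP, had 62, FRMD4A and RAD51B 60 each, KCNMA1 58, TENM4 57, and FOXP1, CDH13 and PALM2AKAP2 55 each. Long genes have more room, and per 100 kb FOXP1 had 8.74 and CDH13 4.69. The choice of these genes and windows was made with their values known.

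The median difference of KO minus WT lay between -1.82 points on chromosome X and 0.01 on chromosome 8, and that of rescue minus KO between -1.35 on chromosome 19 and 0.48 on chromosome X.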
